A study of Danio rerio with 9 samples.

Results

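Neutrophil lineage cells were examined among sorted zebrafish blood progenitors, as cell barcodes chosen by their measured UMI counts of the neutrophil genes mpx, lyz and npsn. A barcode was taken when it held at least 500 UMIs (unique molecular identifiers, each counting 1 captured transcript), at least 200 genes and at most 20% mitochondrial UMIs, when at least 2 of the 3 markers were detected with a sum of at least 10 UMIs, and when that sum exceeded the summed UMIs of the macrophage genes mpeg1.1, mfap4, marco, csf1ra, c1qa and c1qb. This gave 1576 neutrophil barcodes of 29994 that passed the quality limits, or 5.25%. All animals were of the EK strain and carried tg(cd41:GFP), in which a cd41 promoter drives green fluorescent protein, and cells with low fluorescence were sorted. The runx1-/- animals carried a deletion named del8, allele hg96, in runx1, a transcription factor with a role in the emergence of blood stem cells. The WT animals had no such allele in the labels. There were 9 libraries, 5 from runx1-/- animals (1 at each of 2.5, 6 and 10 days post fertilization, dpf, and 2 at 16 dpf that the labels call bloodless and recovered) and 4 from WT animals (1 at each age). The labels do not give the number of animals pooled into a library, and no group had a replicate library, so p-values measure only the spread between these libraries. Both 16 dpf runx1-/- libraries share the WT library of that age.

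Neutrophils are short-lived phagocytes that arise in the bone marrow of mammals and in the kidney marrow and, earlier, the caudal haematopoietic tissue of zebrafish. In mammals their granules are filled in sequence: early (primary, azurophil) granules take myeloperoxidase and lysosomal enzymes at the promyelocyte stage, and later (specific and gelatinase) granules take lysozyme and metalloproteases as division stops. The transcription factors of the C/EBP and PU.1 families drive this programme, colony-stimulating factor 3 sustains it, and the NADPH oxidase supplies the oxidants with which ingested microbes are killed.

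The rule genes are given as a description only, since they chose the barcodes. Among them lyz, the lysozyme of later granules, made up 84.9% to 98.0% of the marker UMIs across libraries. The astacin-like metalloprotease npsn made up 1.42% to 12.1% and the myeloperoxidase gene mpx 0.394% to 3.0%, both highest in WT at 2.5 dpf. In the 7 libraries with at least 10 neutrophil barcodes, lyz stood at 70421 to 123795 CPM in neutrophil barcodes, against 19.4 to 272 CPM in the other barcodes; CPM is the UMIs of a gene scaled to a fixed total over the summed barcodes, counted at the 3' ends of transcripts. Near the limit, 78 neutrophil barcodes held 10 to 19 marker UMIs, 47 of them 10 to 14, and 197 barcodes with 5 to 9 stayed outside. A further 139 barcodes with at least 10 marker UMIs stayed outside because only 1 marker was detected, and the macrophage clause alone excluded 1.

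lyz UMIs also occurred outside the neutrophil barcodes, and whether they came from free RNA, doublets or the cells themselves was not tested. A lyz UMI was found in 1.79% to 43.9% of the other barcodes, lowest in runx1-/- at 2.5 dpf and highest in WT at 16 dpf, and in 0% to 41.2% of the barcodes rich in haemoglobin, a cell type that should lack it. The haemoglobin-rich barcodes had median depths of 14616 to 37092 UMIs and the neutrophil barcodes of 3693 to 13966. Of the 36 pairs of libraries, the pair with the most shared barcodes had 22, and 9 neutrophil barcodes also occurred as a barcode of another library, 0 of them as a neutrophil barcode there. The targeted gene gave no check of the labels: runx1 stood at 0.384 to 2.58 CPM in the neutrophil barcodes of 3 libraries and at 0 in the others, and counts of 3' ends do not show whether the deleted bases are present.

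The share of neutrophil barcodes was lower in runx1-/- than in WT of the same age at 2.5, 6 and 16 dpf, but not at 10 dpf. At 2.5 dpf they were 1 of 1173 in runx1-/- (0.0853%, exact Clopper-Pearson 95% interval 0.00216% to 0.474%), against 88 of 2200 in WT (4.0%, 3.22% to 4.91%). At 6 dpf they were 2 of 767 in runx1-/- (0.261%, 0.0316% to 0.939%), against 87 of 2728 in WT (3.19%, 2.56% to 3.92%). The intervals of the genotypes did not meet at either age, though they cover counting error only. In the other 6 dpf barcodes of runx1-/-, lyz had 2147 UMIs (419 CPM), beside 4 of mpx and 1 of npsn. Only 2.22% of those barcodes held a lyz UMI. In the other 6 dpf barcodes of WT, lyz had 699 UMIs (19.45 CPM). All alternatives for the share kept the need for 2 markers, so its part in the 6 dpf share was not tested.

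At 10 dpf the order turned. The share was 171 of 3323 in runx1-/- (5.15%, 4.42% to 5.95%) and 122 of 2583 in WT (4.72%, 3.94% to 5.61%), and these intervals overlapped. At 16 dpf it was 53 of 3452 in the bloodless runx1-/- library (1.54%, 1.15% to 2.0%) and 328 of 7654 in the recovered one (4.29%, 3.84% to 4.76%), against 724 of 6114 in WT (11.8%, 11% to 12.7%). The 16 dpf WT library alone held 45.9% of all neutrophil barcodes.

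The log2 ratio of the share in runx1-/- to that in WT took the values -4.98, -3.30 and 0.12 for the ages of 2.5, 6 and 10 dpf. For the 16 dpf libraries called bloodless and recovered it was -2.93 and -1.47. Its mean over ages was -2.59, with both 16 dpf libraries averaged and a pseudocount of 0.5 barcodes, and the share was lower in 4 of 5 runx1-/- libraries. The two-sided exact permutation test over 24 reassignments gave p = 0.167, and the smallest p it allows is 0.0417. A share says nothing of cell numbers per animal, because the denominator is the sorted fraction of each library.

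**Figure D1:**
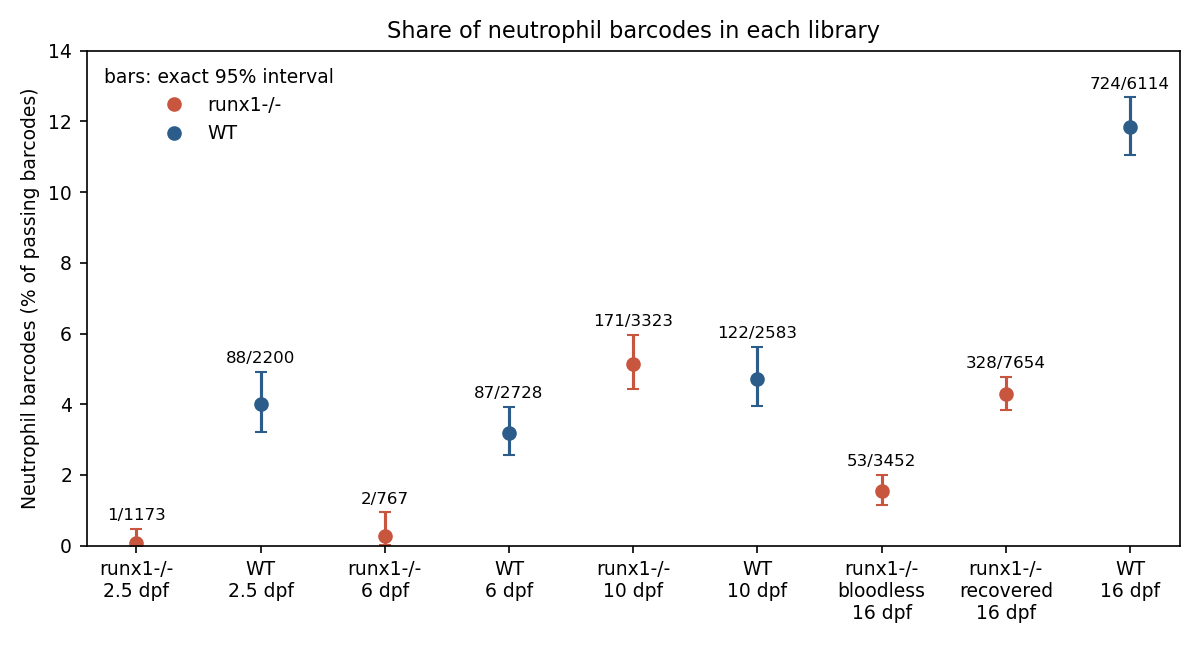
Share of neutrophil barcodes among passing barcodes (y axis, percent) in each of the 9 libraries (x axis), runx1-/- left of WT at each age; bars are exact 95% Clopper-Pearson intervals and the numbers are neutrophil over passing barcodes. The runx1-/- points lie near 0 at 2.5 and 6 dpf, overlap WT at 10 dpf (5.15% and 4.72%) and lie below WT at 16 dpf (1.54% and 4.29%, against 11.8%).

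The neutrophil barcodes carried a broad granulocyte programme beyond the rule genes. Counts were summed over neutrophil barcodes and over the other barcodes of each of 7 libraries and compared within libraries by edgeR's quasi-likelihood test, with a threshold of 0.05 on the adjusted p. Of 16160 genes tested, 8140 passed (50.4%), with 2272 higher (14.1%) and 5868 lower (36.3%) in neutrophil barcodes, and the median log2 fold change of all genes was -0.64. Since the barcodes were parted by expression in these same libraries, the folds below describe them and are not evidence that they form a class.

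Of the genes of early granules and lysosomes, 12 of 18 tested were higher and 1 was lower in neutrophil barcodes, with a median log2 fold change of 1.3. Serglycin (srgn), the proteoglycan that packs granule contents, stood at 2669 to 9727 CPM in neutrophil barcodes, against 73.0 to 202.5 CPM in the others (log2 fold change 5.44, SE 0.33, higher in 7 of 7 libraries). The granule membrane tetraspanin cd63 stood at 1486 to 2677 CPM, against 143 to 498 CPM (3.09, SE 0.27). The lysosomal enzymes were separated less: hexb, a subunit of hexosaminidase, had a log2 fold change of 1.78 and the protease ctsd of 1.19. The protease ctsz was the 1 gene that was lower (-0.65, SE 0.23), near the median of all genes tested (-0.64).

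Later granule genes were separated more, with 8 of 12 tested higher, 1 lower and a median log2 fold change of 4.95. lect2l, related to the leukocyte chemotaxin LECT2, gave the largest fold of any gene named by the rule, at 1140 to 16052 CPM in neutrophil barcodes against 0.863 to 24.9 CPM in the others (9.66, SE 0.33). The gelatinase mmp9 stood at 118 to 1124 CPM, against 3.63 to 35.9 CPM (5.27, SE 0.48). The membrane metalloprotease adam8a had a log2 fold change of 5.31 (SE 0.44) and the metalloprotease inhibitor timp2b of 4.62 (SE 0.31). The collagenase mmp13b, at 0 CPM in 5 of 7 libraries, was the lower gene, and hp (haptoglobin) and cfp (properdin) were among the 3 that did not pass.

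All 8 genes of the NADPH oxidase list were higher. Its cytosolic subunit ncf1 stood at 419 to 2974 CPM in neutrophil barcodes, against 22.8 to 73.5 CPM in the others (4.46, SE 0.39), and its membrane subunit cyba at 209 to 482 CPM, against 12.8 to 91.0 CPM (3.44, SE 0.37). Of the 14 tested genes of actin and migration, 14 were higher, with a median log2 fold change of 2.34. Of 8 genes for lipid mediators, 6 were higher and 2 lower; alox5ap and lta4h, which act in leukotriene synthesis, had log2 fold changes of 6.20 (SE 0.34) and 4.29 (SE 0.27).

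Transcription factors of granulopoiesis divided, with 8 of 20 higher and 7 lower, beside 14.1% higher and 36.3% lower among all genes tested. Their median log2 fold change was -0.60, near the -0.64 of all genes, so the lower calls did not set this list apart. The myeloid factor cebp1, a zebrafish member of the C/EBP family, stood at 29.3 to 107 CPM in neutrophil barcodes, against 0.451 to 2.24 CPM in the others (5.73, SE 0.29), and spi1b, a PU.1 gene, at 678 to 1389 CPM, against 12.5 to 87.9 CPM (4.83, SE 0.36). cebpa, which acts at the entry to the granulocyte path in mammals, had a log2 fold change of 2.67 (SE 0.33) and cebpb of 1.90 (SE 0.49). The lower factors were cebpd (-4.43), gfi1b (-3.59), gfi1ab (-3.39), irf8 (-3.0), gfi1aa (-2.93), nfe2 (-2.71) and the progenitor gene myb (-0.71). Of these, myb lay near the median of all genes tested. In zebrafish irf8 favours macrophages over neutrophils.

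Of the receptors and adhesion genes, 14 of 19 were higher and 0 lower. The receptor of colony-stimulating factor 3, csf3r, was detected at only 8.07 to 55.9 CPM in neutrophil barcodes, against 0.718 to 5.12 CPM in the others (3.39, SE 0.37), and the interleukin 6 receptor il6r at 678 to 1329 CPM, against 6.95 to 49.6 CPM (5.76, SE 0.42). The chemokine receptor cxcr4b, which holds neutrophils in haematopoietic tissue, had a log2 fold change of 2.47 (SE 0.38).

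The second-largest fold belonged to cpa5, a carboxypeptidase known in zebrafish from mast cells. It stood at 1222 to 3093 CPM in neutrophil barcodes, against 0.567 to 33.1 CPM in the others (9.25, SE 0.56, higher in 7 of 7 libraries). Another gene of the list for mast cells and eosinophils, the eosinophil peroxidase epx, was at 0 CPM in 5 of 7 libraries and at 0.128 and 0.84 CPM in the other 2. Of the 3 tested genes of that list, 1 was higher and 1 lower, with a median log2 fold change of -2.27. Of 11 macrophage genes outside the rule, 3 were higher and 6 lower, the highest being the cathepsin ctss2.1 (161 to 1018 CPM in neutrophil barcodes, against 11.9 to 136 CPM). Of 14 haemoglobin and red cell genes 14 were lower. Of 14 stem and progenitor genes 10 were lower and 2 higher, and those 2 were both entries of adgrg1, an adhesion receptor.

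**Figure D2:**
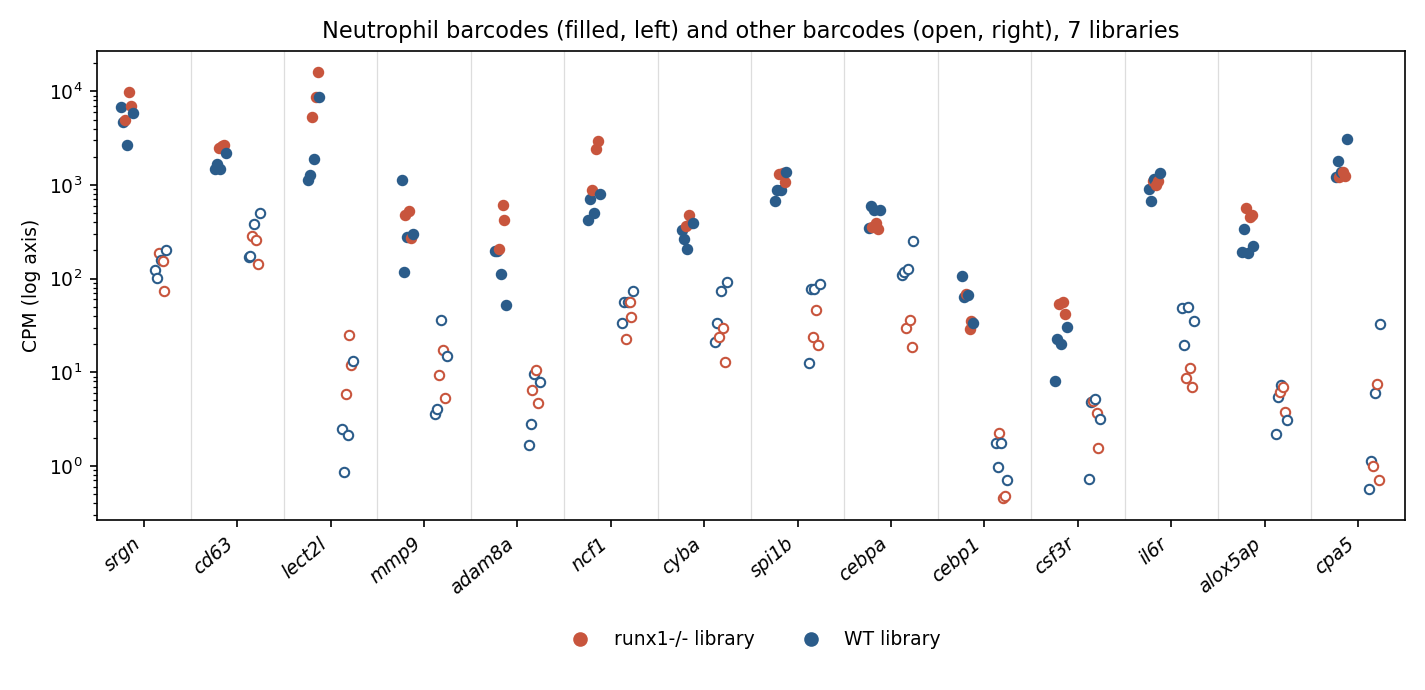
CPM (log axis) of 14 genes in neutrophil barcodes (filled, left) and in the other barcodes (open, right) of the same 7 libraries; each point is 1 library, coloured by genotype. No gene shows overlap between filled and open points; the gap is widest for lect2l and cpa5 and narrowest for cebpa.

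Within WT, the granule genes differed between ages, given here as a description since each age had 1 library and the 2.5 dpf files used another annotation. From 2.5 to 16 dpf, npsn had 10043, 1709, 2408 and 1798 CPM and mmp9 had 1124, 118, 277 and 296 CPM. The receptor chain gene fcer1gl had 2855, 107, 75.6 and 126 CPM. The other way round, lect2l had 1140, 1270, 1902 and 8663 CPM and cpa5 had 1222, 1824, 1375 and 3093 CPM. The neutrophil barcodes of 2.5 dpf were thus high in npsn, mmp9 and fcer1gl and those at 16 dpf in lect2l and cpa5. mmp13a has 2 entries in the later annotation and 1 in the earlier, so its levels cannot be set across these ages.

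Within neutrophil barcodes, inflammatory genes were higher in runx1-/- than in WT while most granule genes did not pass the test. The comparison used the 5 libraries of 10 and 16 dpf with age as a term in edgeR's quasi-likelihood test (2 residual degrees of freedom, 6619 genes tested). Its p-values and SEs also draw on a spread shared among genes, worth 9.27 prior degrees of freedom, so they rest on more than those 2. The test called 375 genes (5.67%), 235 higher (3.55%) and 140 lower (2.12%) in runx1-/-, and 1329 had an unadjusted p under 0.05. Folds are scaled by TMM, which sets the bulk of genes as unchanged. Scaled by library totals alone, as CPM are, the median of all genes moved to 0.40 and 478 genes passed, 414 higher and 64 lower. CPM therefore differ more towards runx1-/- than the folds beside them. Values below are given for runx1-/- at 10 dpf, bloodless and recovered, in that order, and then for WT at 10 and 16 dpf, and adjusted p-values are edgeR's with Benjamini-Hochberg adjustment over all genes tested.

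Of the 9 tested genes for cytokines and inflammation, 6 were higher and 0 lower in runx1-/-, with a median log2 fold change of 2.08, beside 0.0047 for all genes tested. The list had 18 genes in the files. With no filter on low counts 14 were tested, 5 higher and 1 lower. In 3 further alternatives 1 gene was lower: with the highest doublet scores removed (8 tested), without the bloodless library (8) and without the recovered library (7). The tumour necrosis factor gene tnfb stood at 54.2, 764 and 320 CPM in runx1-/- libraries, against 8.70 and 16.6 CPM in WT (log2 fold change 3.80, SE 0.53, edgeR adjusted p = 0.00208, higher in 3 of 3). Interleukin 1 beta, il1b, stood at 80.6, 1075 and 1026 CPM in runx1-/-, against 24.8 and 102 CPM in WT. Here the groups overlapped across ages, but each runx1-/- library lay above the WT library of its age (2.3, SE 0.37, edgeR adjusted p = 0.00491).

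The inhibitors of NF-kB, themselves induced by that pathway, followed. nfkbiaa stood at 226, 955 and 663 CPM in runx1-/-, against 78.3 and 161 CPM in WT (1.57, SE 0.28, edgeR adjusted p = 0.00895). nfkbiab stood at 1219, 3579 and 3343 CPM in runx1-/-, against 438 and 1065 CPM in WT (1.2, SE 0.28, edgeR adjusted p = 0.0311). Its call was lost under 3 of 11 alternatives, where the adjusted p reached 0.383. acod1, which makes the antimicrobial metabolite itaconate, stood at 28.4, 45.2 and 44.5 CPM in runx1-/-, against 2.01 and 4.09 CPM in WT (3.08, SE 0.39, edgeR adjusted p = 0.00145). The acute-phase gene saa also passed, but from 0 to 10.6 CPM in any library. Of the 3 that did not pass, tnfaip3 and socs3b had log2 fold changes of 2.08 and 0.28 and the chemokine cxcl8b.1 one of -2.63 (edgeR adjusted p = 0.0507).

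Depth and other cell types moved with this comparison, and their part in it was not tested beyond the values here. At 16 dpf the median depth of neutrophil barcodes was 3693 and 4261 UMIs in the bloodless and recovered libraries, against 10608 UMIs in WT, and at 10 dpf 8380 UMIs in runx1-/- and 12649 in WT. With each barcode thinned to 2000 UMIs, 5 of 6 tested genes of the inflammation list were higher, and scaled by library totals 6 of 9. The 11 macrophage genes outside the rule summed to 865, 836 and 751 CPM in runx1-/-, against 204 and 551 CPM in WT, and 0 of the 6 tested passed. The macrophage genes of the rule were kept low by the rule itself and are not used here.

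Later granule genes had positive log2 fold changes in 10 of 10 tested, with a median of 0.67. 3 of them passed, all higher, and 2 to 5 did under the alternatives. adam8a stood at 206, 612 and 426 CPM in runx1-/-, against 112 and 51.7 CPM in WT (1.84, SE 0.46, edgeR adjusted p = 0.0387). Both entries of the collagenase mmp13a passed, and reads may be divided between them. The entry ENSDARG00000012395 stood at 197, 325 and 139 CPM in runx1-/-, against 17.4 and 44.9 CPM in WT (2.29, SE 0.39, edgeR adjusted p = 0.00693). The entry ENSDARG00000114451 stood at 3810, 6416 and 4038 CPM in runx1-/-, against 428 and 1882 CPM in WT (1.71, SE 0.44, edgeR adjusted p = 0.0446), and lost its call under 2 of 11 alternatives, where the adjusted p reached 0.582.

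The most abundant later granule gene outside the rule, lect2l, stood at 5358, 8796 and 16052 CPM in runx1-/-, against 1902 and 8663 CPM in WT (0.53, SE 0.41, edgeR adjusted p = 0.531). It passed without the bloodless library, at 0.89 (edgeR adjusted p = 0.00154). The gelatinase mmp9 stood at 480, 522 and 274 CPM in runx1-/-, against 277 and 296 CPM in WT (0.14, SE 0.30). Of the 15 tested genes of early granules and lysosomes 0 passed, at a median log2 fold change of 0.25. Of these, srgn stood at 4980, 9727 and 6926 CPM in runx1-/-, against 2669 and 5814 CPM in WT (0.26, SE 0.31), and cd63 at 2466, 2619 and 2677 CPM in runx1-/-, against 1499 and 2172 CPM in WT (0.06, SE 0.30). The sign of lect2l, mmp9, srgn and cd63 turned when 10 dpf was left out. Of the 14 genes of actin and migration 0 passed as well, though 13 had positive log2 fold changes and 6 passed, all higher, when scaled by library totals.

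The myeloid factor cebpa was lower in runx1-/-, at 358, 394 and 341 CPM against 542 and 538 CPM in WT (-0.98, SE 0.25, edgeR adjusted p = 0.0442). Its call was lost under 6 of 11 alternatives, scaling by library totals among them, at edgeR adjusted p up to 0.164.

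The factor ets2 was higher in runx1-/-, at 128, 168 and 131 CPM against 48.9 and 42.6 CPM in WT (1.22, SE 0.24, edgeR adjusted p = 0.0137). It and cebpa were the 2 of 13 tested granulopoiesis factors that passed. Of 14 tested receptors and adhesion genes, 3 were higher and 0 lower. s1pr4, a receptor for the migration lipid sphingosine 1-phosphate, stood at 96.7, 399 and 198 CPM in runx1-/-, against 4.02 and 29.2 CPM in WT (3.15, SE 0.38, edgeR adjusted p = 0.00112). The integrin chain itgb2, needed for adhesion to vessel walls, stood at 193, 370 and 219 CPM in runx1-/-, against 90.4 and 65.8 CPM in WT (1.28, SE 0.29, edgeR adjusted p = 0.0242). The flagellin receptor tlr5b stood at 23.2, 98.5 and 98.2 CPM in runx1-/-, against 3.35 and 28.3 CPM in WT (1.56, SE 0.33, edgeR adjusted p = 0.0177).

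**Figure D3:**
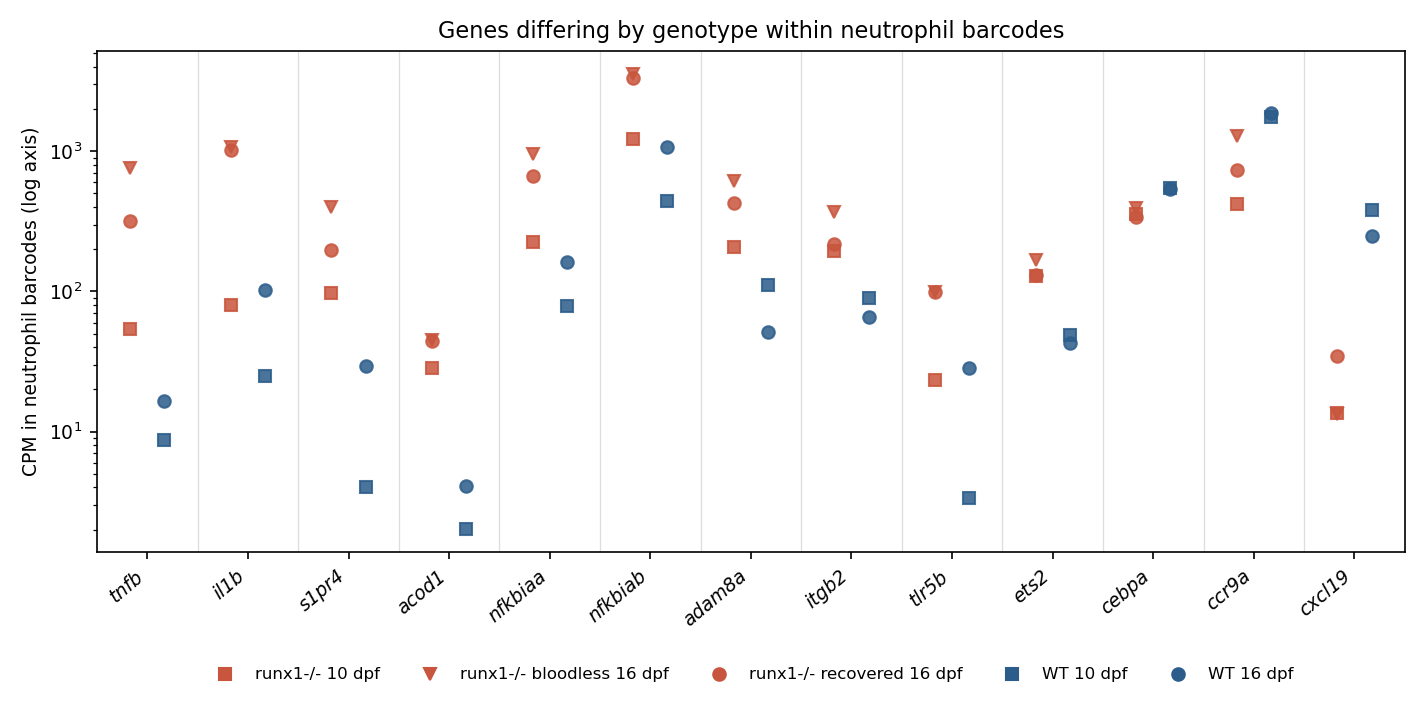
CPM (log axis) in neutrophil barcodes of 13 genes that passed the genotype test, with the 3 runx1-/- libraries left of the 2 WT libraries for each gene; each marker is 1 library. The first 10 genes are higher in runx1-/- and the last 3 lower. Values of il1b and tlr5b overlap between genotypes, through the low values at 10 dpf. The genes passed the test on these same libraries, so their separation is a description. The share without overlap among all genes tested is not given.

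Haemoglobin genes, which mark red cells, made up 6 of the 10 highest folds, led by hbae3 at 16.1, 3244 and 497 CPM in runx1-/-, against 0.669 and 0.256 CPM in WT (11.28, SE 1.45, edgeR adjusted p = 0.00157). The 15 red cell genes summed to 657, 12439 and 15727 CPM in the neutrophil barcodes of runx1-/-, against 15.4 and 141 CPM in those of WT, and 10 of 13 tested were higher. In the other barcodes of the same libraries they summed to 43060, 75814 and 68309 CPM in runx1-/-, against 4942 and 3104 CPM in WT. Few barcodes carried these transcripts at more than 1% of their UMIs: 1, 1 and 10 in runx1-/-, against 0 and 1 in WT. Without them 366 genes passed, and 5 of 8 tested inflammation genes and 7 of 8 tested red cell genes were higher.

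The ribonucleotide reductase gene rrm2 (ENSDARG00000020711) stood at 23.9, 61.2 and 70.4 CPM in runx1-/- neutrophil barcodes and had 0 counts in both WT libraries. Set against the floor of 3 counts over the WT group, it was at least 159-fold higher in runx1-/- (edgeR adjusted p = 0.000179). Its second entry, ENSDARG00000078069, was at 41.9, 55.9 and 40.1 CPM in runx1-/-, against 61.6 and 65.9 CPM in WT. Reads may be divided between entries of 1 symbol, and the 2 entries summed to 65.8, 117.1 and 110.5 CPM in runx1-/-, against 61.6 and 65.9 CPM in WT. rrm2 is on the list of DNA replication and mitosis, of which 2 of 21 tested genes were higher; 7 were without 10 dpf, and 0 of 7, with 1 lower, when barcodes were thinned. The other gene was mcm5 of the replication helicase (1.47, SE 0.31, edgeR adjusted p = 0.0185), whose call was lost when barcodes with the highest doublet scores were removed (adjusted p = 0.266).

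Among the 10 lowest genes, the chemokine cxcl19 stood at 13.5, 13.3 and 34.7 CPM in runx1-/-, against 379 and 247 CPM in WT (-4.18, SE 0.40, edgeR adjusted p = 0.000313). In the other barcodes it stood at 4.28, 34.1 and 4.57 CPM in runx1-/-, against 98.2 and 118 CPM in WT. The transcriptional co-repressor nab1a stood at 2.58, 0 and 1.47 CPM in runx1-/-, against 39.5 and 21.1 CPM in WT (-4.32, SE 0.48, edgeR adjusted p = 0.00054). The epidermal claudin cldni stood at 0, 26.6 and 40.1 CPM in runx1-/-, against 314 and 360 CPM in WT (-4.98, SE 0.69, edgeR adjusted p = 0.00208), beside 22.1, 30.3 and 28.4 CPM in the other barcodes of runx1-/- and 607 and 1515 CPM in those of WT. The hormone gene stc1l was decided by 1 library, at 1.93, 21.3 and 26.9 CPM in runx1-/-, against 2.01 and 726 CPM in WT, and its fold turned to 0.63 without the barcodes of highest doublet score. The others were zgc:153317, zgc:113208, si:dkey-203a12.2, spink2.3, spink2.2 and bnip4.

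Whether these genotype differences were the same in the other barcodes was tested as an interaction over the same 5 libraries. The make-up of the other barcodes also differed by genotype, and its part in the interaction was not tested. Their red cell genes summed to 43060, 75814 and 68309 CPM in runx1-/-, against 4942 and 3104 CPM in WT. Their granulopoiesis factors summed to 724, 612 and 426 CPM in runx1-/-, against 2378 and 1389 CPM in WT. Of 15868 genes, 696 passed (4.39%), 532 with a difference further towards runx1-/- in neutrophil barcodes (3.35%) and 164 further towards WT (1.03%). Without 10 dpf 336 passed, and without the recovered library 227. This fit shared 1 estimate of the spread around the trend among all genes, so edgeR's p-values rest on more than its 2 residual degrees of freedom and are too small. The adjusted p of DESeq2, which called 346, is given beside each gene, while the folds and SEs there come from the edgeR fit and share this limit. Of the 375 genes that differed by genotype in neutrophil barcodes, 152 also passed here, which is 40.5% of that list and 21.8% of the interaction list; both lists use the same neutrophil counts.

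tnfb stood at 11.3, 38.6 and 8.54 CPM in the other barcodes of runx1-/-, against 10.2 and 4.82 CPM in those of WT, and its difference was larger in neutrophil barcodes by a log2 fold of 2.51 (SE 0.34, DESeq2 adjusted p = 3.54e-08). s1pr4 was larger by 1.98 (SE 0.35, DESeq2 adjusted p = 0.000101), adam8a by 2.35 (SE 0.30, DESeq2 adjusted p = 1.7e-05) and il1b by 1.49 (SE 0.30, DESeq2 adjusted p = 0.0322). il1b lost this call without 10 dpf and without the recovered library. For cebpa the difference was smaller in neutrophil barcodes. In the other barcodes it stood at 29.5, 36.2 and 18.7 CPM in runx1-/-, against 127 and 251 CPM in WT (interaction 1.94, SE 0.28, DESeq2 adjusted p = 1.56e-06).

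Among the 10 highest genes of the interaction, the growth factor csf3b, a ligand of csf3r, stood at 32.9, 69.2 and 69.9 CPM in neutrophil barcodes of runx1-/-, against 5.35 and 11.1 CPM in those of WT. In the other barcodes it stood at 0.516, 12.7 and 2.16 CPM in runx1-/-, against 11.6 and 18.5 CPM in WT (interaction 5.02, SE 0.44, DESeq2 adjusted p = 1.27e-06). The lectin itln1 stood at 108, 298 and 102 CPM in neutrophil barcodes of runx1-/-, against 1.34 and 5.37 CPM in those of WT (5.21, SE 0.39, DESeq2 adjusted p = 2.26e-08). The transcription factor batf3 stood at 34.8, 37.3 and 41.1 CPM in runx1-/-, against 0.669 and 1.54 CPM in WT (4.6, SE 0.57, DESeq2 adjusted p = 2.45e-05). The highest of the 10 was si:dkey-21e2.8, from the list for mast cells and eosinophils. In the genotype test 1 of 2 tested genes of that list was higher, and it was this gene. Its genotype log2 fold change ran from 5.49 to 7.68 under the 8 of 11 alternatives that tested it, and its call was lost under 1 of them. In the bloodless library that list had 342 counts in the 15 barcodes with 1% to under 5% of UMIs in the 3 markers. Of these counts 175 were of cpa5. Below 1% and from 5% up, all 11 and all 333 counts of the list were of cpa5. In runx1-/- at 10 dpf, barcodes from 5% up had 1816 list counts, 1815 of cpa5. In the recovered library these numbers were 2258 and 2194. The spread of this gene over barcodes was not tested.

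The neutrophil barcodes were graded in how much of their RNA came from the 3 markers. The planned comparison of mpx-rich with lyz- or npsn-rich barcodes could not be fitted, because mpx exceeded the other markers in only 20 barcodes. Instead the barcodes of the 7 libraries were divided by marker share, a division chosen after the data were seen and described without a test: 1145 (72.8%) had 5% or more of their UMIs in the markers, 294 (18.7%) had 1% to under 5%, and 134 (8.52%) had under 1%. These are ranges, not types: 140 barcodes lay close to the upper limit and 55 close to the lower. CPM here leave the rule genes out of the total.

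Some granule genes, and other neutrophil genes, went with marker share. srgn was at 3928 to 18998 CPM in barcodes of the top range, against 755 to 5887 CPM in those of the bottom range, higher in 7 of 7 libraries with a median ratio of 4.35. lect2l was at 1614 to 25845 CPM in the top range, against 0 to 4984 CPM in the bottom (7 of 7, median ratio 13.5), and cpa5 at 1623 to 4531 CPM, against 0 to 803 CPM (7 of 7, 10.8). alox5ap (7 of 7, 5.50), cd63 (7 of 7, 2.25) and spi1b (7 of 7, 1.46) did likewise. Other granule genes did not in every library: ctsd and mmp13a were higher in the top range in 5 of 7 libraries, with median ratios of 2.02 and 1.36, and mmp9 and scpp8 in 3 of 7, with median ratios of 0.405 and 0.743. The cytokine gene il1b and the progenitor factor myb were each higher in the top range in 2 of 7 libraries, with median ratios of 0.755 and 0.591. The red cell list was higher in the top range in 0 of 7. Median ratios leave out libraries at 0 in the bottom range, 1 for lect2l, cpa5 and mmp9 and 2 for il1b. For il1b those 2 were WT at 2.5 and 10 dpf, at 263 and 30.0 CPM in the top range. They were also the 2 in which il1b was higher there, so its median ratio covers only libraries where it was lower. Bottom ranges are small, with 3 barcodes in WT at 6 dpf, 6 in runx1-/- at 10 dpf and 44 in WT at 16 dpf. In the 10 of WT at 2.5 dpf the red cell list was at 14912 CPM and the later granule list at 152 CPM, with mmp9, adam8a and cpa5 at 0. There srgn was at 755 CPM and cebpa at 387 CPM. Whether those barcodes were neutrophils was not tested.

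**Figure D4:**
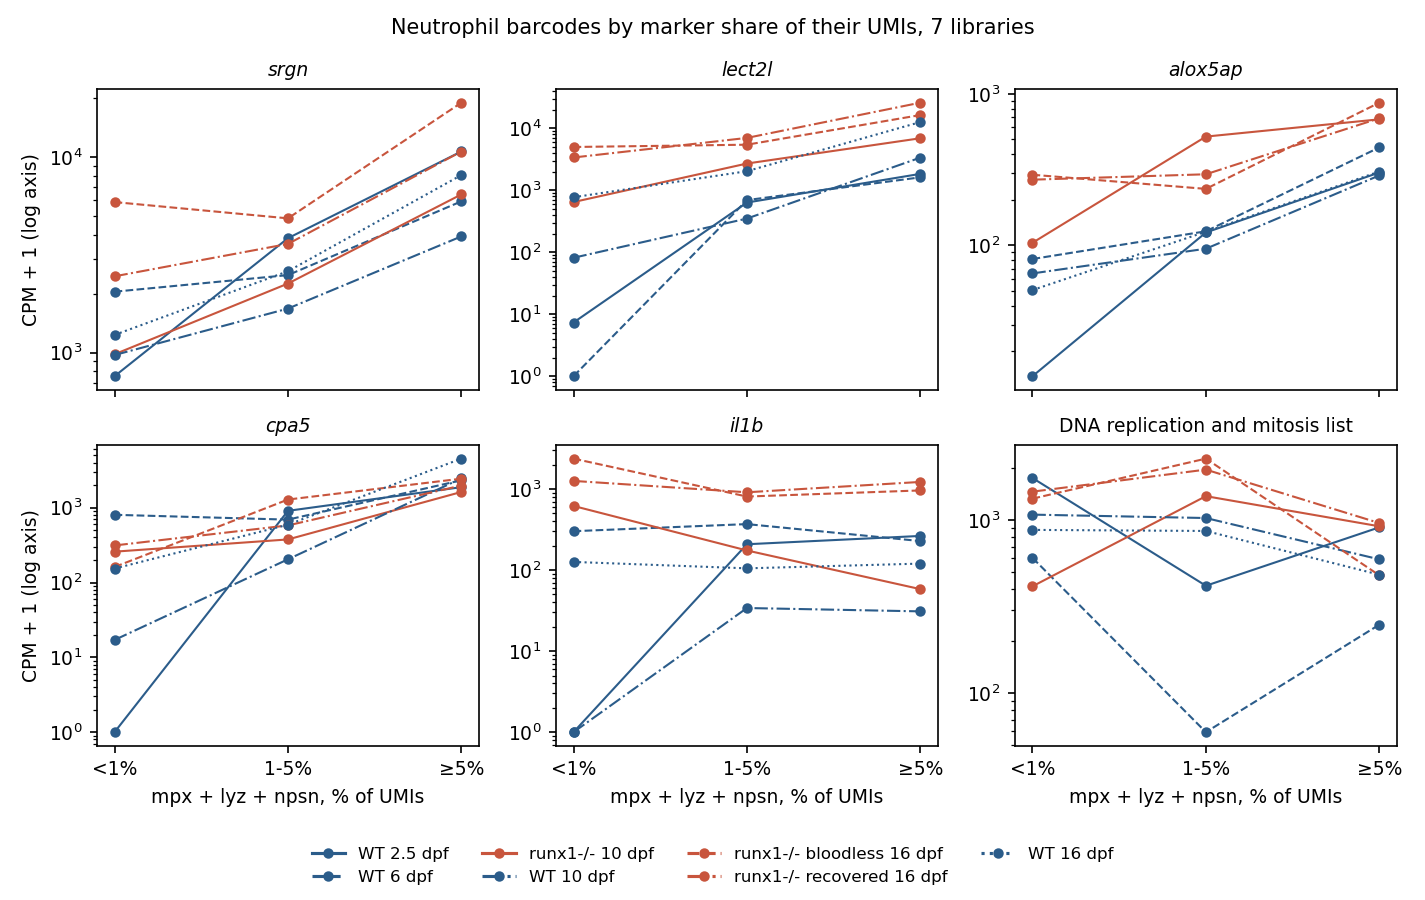
CPM + 1 (log axis, rule genes left out of the total) of 5 genes and of the summed DNA replication and mitosis list, by the share of UMIs from mpx, lyz and npsn (x axis), with 1 line per library. srgn, lect2l, alox5ap and cpa5 end above their start in 7 of 7 libraries; il1b does so in 2 and the replication list in 1.

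The share of barcodes with cell cycle transcripts was lower among neutrophil barcodes than among the others in 7 of 7 libraries, though in WT at 6 dpf the exact 95% interval of the neutrophil share, 21.9% to 43.6%, held the value of the others. With barcodes thinned to 2000 UMIs and shallower ones left out, the share with a UMI of the 20 DNA replication and mitosis genes was 48.7% of 150 neutrophil barcodes and 73.3% of the other barcodes in runx1-/- at 10 dpf, and 47.0% of 115 and 66.8% in WT. At 16 dpf it was 34.7% of 49 and 74.6% (bloodless), 38.5% of 288 and 81.7% (recovered), and 36.7% of 632 and 62.6% in WT. At 2.5 and 6 dpf in WT it was 50% and 32.1% of neutrophil barcodes, and 69.3% and 39.9% of the others. Of the 21 genes of the list tested between neutrophil and other barcodes, 19 were lower and 0 higher. Without thinning, the neutrophil shares ran from 52.1% in the recovered library to 88.6% in WT at 2.5 dpf.

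Between genotypes, the cycling shares of neutrophil barcodes had a mean log2 ratio of 0.026 over 10 and 16 dpf (exact permutation p = 0.833, smallest possible 0.167), and the sign turned without thinning. The summed level of the list pointed towards runx1-/-, at 860, 1235 and 1149 CPM in runx1-/- neutrophil barcodes, against 720 and 502 CPM in those of WT. In the bloodless library, 308 of the 464 counts of the list lay in the 15 barcodes with a marker share of 1% to under 5%. By gene, 20 of 21 tested had positive log2 fold changes, with a median of 0.66, beside 0.0047 for all genes tested. Within the bins of marker share, the summed list was higher in the top range in only 1 of 7 libraries, at a median ratio of 0.55. mpx-rich barcodes numbered 0 in runx1-/- at 10 dpf, 4 (bloodless) and 8 (recovered) at 16 dpf, against 1 in each of the WT libraries of 10 and 16 dpf (mean log2 ratio 1.21). These counts rest on the markers that chose the barcodes and are a description without a test.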

How the data were processed

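The deposited matrices hold UMI counts per gene and barcode, not normalized by the authors; per the labels' protocols they come from 10x Genomics Chromium 3' version 3 kits. The submitters' processing notes name Cell Ranger 2.0.2 and GRCz10, and per the file headers the matrices of 6 and 16 dpf carry software version 3.1.0. Gene annotations differ, with 26586 genes at 2.5 dpf and 26573 later, of which 24201 are shared. The smallest barcodes at 2.5 dpf hold 2907 and 2915 UMIs, against 500 to 505 later. Libraries held 5166313 to 94476178 UMIs, and the summed neutrophil barcodes 6571 to 7817243.

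Counts of neutrophil and other barcodes were summed per library. Libraries with under 10 neutrophil barcodes were left out of gene tests (edgeR 4.0.16, R 4.3.3, TMM, filterByExpr; DESeq2 1.42.0 as alternative). The models were age plus genotype, library plus class (24201 genes), and library, class by age and class by genotype. Each SE was taken as the absolute log2 fold change over the square root of edgeR's quasi-likelihood F statistic. Doublets were kept; Scrublet (scanpy 1.11.5) ranked them for an alternative that removed 131 neutrophil barcodes. Named genes are those of 21 lists and the 10 highest and 10 lowest log2 fold changes past the threshold with the same sign throughout and at least 20 CPM in the higher group. The members, the lists and the tests were chosen with earlier results of these data known. Intervals cover counting error only. Gene names are those of the files; coordinates and sequences were not used here. Some genes that passed are not reported here.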

Additional observations from a re-analysis of the deposited data

Results flagged for a closer look

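The share of neutrophil barcodes at 10 dpf went against the other ages. Its log2 ratio of runx1-/- to WT was 0.12 there, while it lay between -4.98 and -1.47 for the other 4 runx1-/- libraries. With 1 library per genotype at that age, the difference between ages was not tested.

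The genotype difference itself differed between neutrophil and other barcodes for 696 genes by edgeR's quasi-likelihood interaction test. DESeq2 called 346. The share of called genes that lay further towards runx1-/- in neutrophil barcodes was 76.4% with edgeR and 89.6% with DESeq2, whose median log2 value over all genes was 0.13.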

How the results depend on the processing

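The mean log2 ratio of the neutrophil share stayed negative under the 7 alternatives with all libraries (-2.39 to -2.98) (exact permutation p = 0.125 to 0.167) and with an age or library left out (-3.49 to -1.79), where the smallest p allowed is 0.0625 to 0.125 and no fit could pass. For the mpx-rich share, leaving out 1 age or library gave -2.07 (without 16 dpf) to 4.49. For the cycling share the sign turned without thinning (-0.14) and, within a range of -0.0093 to 0.061 with 1 left out, without the recovered library. Scaled by library totals, the genotype test called 478 genes, 414 higher and 64 lower in runx1-/-, of which 298 were among the 375 with TMM. It called 566 genes with no filter on low counts, and 414 to 670 with an age or library left out, most without 10 dpf; the fit without 16 dpf has no residual degrees of freedom. Neutrophil against other barcodes called 4536 to 7810 with an age or library left out, fewest without 16 dpf. The interaction called 346 by DESeq2, 449 with no filter, and 227 to 689 with an age or library left out (336 without 10 dpf, fewest without the recovered library). The cause was not tested.

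Of 819 alternatives for 71 results of single genes, 30 lost the call, 1 gained it (lect2l by genotype, 0.89 without the bloodless library) and 8 turned the sign. A gene named in several comparisons counts once for each. The tally includes neutrophil against other barcodes, which the rule itself parted. It also includes genes such as srgn by genotype, which had no call to lose. With 1 age or library left out, the genotype fold ran from -0.089 to 0.37 for srgn, from -0.29 to 0.21 for cd63, from -0.21 to 0.35 for mmp9 and from -0.015 to 0.89 for lect2l, each time lowest without 10 dpf. For mmp9 it was also -0.053 with at least 20 marker UMIs and -0.20 with a marker share of at least 1%. For stc1l it was 0.63 with the highest doublet scores removed and 0.57 with a marker share of at least 1%.

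The alternatives on marker share and red cell UMIs, the genotype tests thinned or scaled by totals, and the comparison with other barcodes without the runx1-/- 10 dpf library were chosen after the data were seen. No paired analysis between genotypes was possible because each group has 1 library, all numbered 1, and age is already a term. Comparisons of neutrophil with other barcodes were paired within libraries. Without replicate libraries, spread between captures of the same group could not be measured, and at 2.5 and 6 dpf the runx1-/- libraries held too few neutrophil barcodes for any gene.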

Other observations

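The rrm2 entry that had no count in WT neutrophil barcodes of 10 and 16 dpf was also nearly absent from the other WT barcodes. ENSDARG00000020711 was at 96.0 CPM in the other barcodes of runx1-/- at 10 dpf, 324 CPM in the bloodless and 232 CPM in the recovered library, against 0.145 CPM in WT at 10 dpf and 0.104 CPM in WT at 16 dpf. At 6 dpf it was at 36.5 CPM in runx1-/- and 0.0557 CPM in WT, and at 2.5 dpf, under the other annotation, at 2.91 CPM in runx1-/- and 2.57 CPM in WT. The other entry of the same symbol was at 114 to 157 CPM in runx1-/- and at 45.0 to 237 CPM in WT.

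Germ cell transcripts were found in neutrophil barcodes of 16 dpf. The germ cell helicase ddx4 stood at 0.645, 232 and 93.8 CPM in runx1-/- neutrophil barcodes at 10 dpf, bloodless and recovered, against 0 and 12.15 CPM in WT (log2 fold change 3.1, SE 0.48, edgeR adjusted p = 0.0036). In the other barcodes ddx4 stood at 23.0, 473 and 140 CPM in runx1-/-, against 3.23 and 229 CPM in WT. All 3 tested genes of the germ cell list passed, but with the highest doublet scores removed 1 was tested and 0 passed, and with barcodes thinned 0 were tested. In the bloodless library 152 of the 154 germ cell counts lay in the 15 barcodes with a marker share of 1% to under 5%. In the recovered library 164 of 317 lay in the 68 barcodes of that range and 153 in the 221 of 5% or more. In both libraries 0 neutrophil barcodes held these transcripts at 1% or more of their UMIs.

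The chemokine receptor ccr9a, from the list of T and NK cells, was abundant in neutrophil barcodes and lower in runx1-/-. Of the 12 tested genes of that list 9 were lower and 2 higher in neutrophil than in other barcodes, and of the 4 tested by genotype 1 was higher and 1 lower. It stood at 422, 1285 and 734 CPM in runx1-/-, against 1760 and 1877 CPM in WT (-1.83, SE 0.32, edgeR adjusted p = 0.00787). This call was lost under 1 of 11 alternatives. The interaction for ccr9a also passed, at 1.75 to 2.86 under the alternatives, with its call lost under 1 of 9. Its decrease in runx1-/- was thus smaller in neutrophil than in other barcodes. The phosphatase dusp2 of the same list was higher, at 189, 237 and 160 CPM in runx1-/-, against 68.9 and 18.3 CPM in WT (2.14, SE 0.38, edgeR adjusted p = 0.00834).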
